A study of Mus musculus with 12 samples.

Results

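Apolipoproteins are the protein parts of the lipoprotein particles that carry triglycerides and cholesterol in blood, and 10 of their genes were examined here in mouse liver (Apoa1, Apoa2, Apoa4, Apoa5, Apob, Apoc1, Apoc2, Apoc3, Apoe and Apoh). They were taken by name out of 52636 genes in the deposited tables. RNA-seq was performed on livers of 12 male C57Bl/6J offspring (F1) at 16 weeks of age, with 1 library per mouse. The mothers of the 6 VDD-F1 mice ate a diet lacking vitamin D before mating and through pregnancy, and those of the 6 VDS-F1 mice a matched diet with sufficient vitamin D. VDD-fed mothers also received calcium gluconate, so the 2 changes to the maternal diet cannot be told apart. All mothers were given the sufficient diet after delivery and all offspring after weaning. The sources used here do not say which offspring were littermates, or whether livers were taken from fed or fasted mice.

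Liver weights are on record for 7 mice, namely VDD4, VDD5, VDD6 and VDS3 to VDS6, but not for the other 5, namely VDD1 to VDD3, VDS1 and VDS2. No label calls the 2 sets a batch, and why the weights are absent is not stated. Each comparison of the diets was therefore also made within each set, and the sets were compared with each other.

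The liver builds very low density lipoprotein around Apob, the large structural protein of the particle, and secretes the smaller exchangeable apolipoproteins that move between particles. Apoa1 and Apoa2 are the main proteins of high density lipoprotein. Apoe is a ligand of the receptors that clear remnants, Apoc2 activates lipoprotein lipase and Apoc3 restrains it. Apoa4 is made in the intestine and, in mice, also in the liver.

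The libraries held 14275793 to 20815066 reverse-strand counts on genes, 14784529 to 20815066 in the mice without and 14275793 to 20582910 in the mice with a recorded liver weight. Albumin took 5.38% to 8.18% of the counts, and all 20 genes of a hepatocyte marker list passed the filter on low counts. VDS6 stood apart, with 11.1% of its fragments outside annotated genes against 2.52% to 4.94% in the other 11 libraries. Such bulk values cannot tell fewer cells of a type from less RNA per cell.

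The 10 apolipoprotein genes together made up 5.01% to 5.86% of the counts of each library. Their levels per length are given as FPKM, the CPM (counts relative to the size of the library, TMM scaled) divided by the length of the exons in kilobases. Apoe was highest, at 10231 ± 871 FPKM (SD, n = 12), followed by Apoa2 at 8698 ± 1654, Apoa1 at 6429 ± 1294 and Apoc1 at 3929 ± 428. Apoe lay above Apoa2 in 12 of 12 mice and Apoa2 above Apoa1 in 11 of 12. A second tier held Apoh at 992 ± 154 FPKM, Apoc3 at 979 ± 95.4 and Apob at 908 ± 77.4 (SD, n = 12). Apoh was above Apoc3 in 6 of 12 mice, so these neighbours in the order did not differ beyond their spread. Apoc3 was above Apob in 10 of 12. Apoa4 averaged 414 ± 487 FPKM and Apoa5 359 ± 56.7 (SD, n = 12), and Apoa4 was the higher of the pair in 5 of 12 mice. Between its lowest and its highest mouse Apoa4 ranged 23.9-fold, where the other 8 genes with enough counts ranged from 1.34-fold (Apoe) to 2.26-fold (Apoa1).

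Apoc2 could not be assessed. Its counts were 0 to 9 per library, but 646 of its 813 exon bases are shared, on the same strand, with the readthrough gene Gm44805, and the authors' counting assigns a fragment on both genes to neither. Gm44805 itself had 0 counts in all 12 libraries. Apoc2 did not pass the filter, which asked for a mean of at least 12 counts, so 9 of the 10 genes were tested among 12453 genes.

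Most members sit in 2 clusters. On chromosome 9 (GRCm38) Apoa1 (46228580 to 46230466, plus strand), Apoc3 (46232933 to 46235636, minus strand), Apoa4 (46240696 to 46243459, plus strand) and Apoa5 (46268633 to 46271919, plus strand) lie within 43340 bases. On chromosome 7 Apoc2 (19671579 to 19677941), Apoc1 (19689481 to 19692660) and Apoe (19696109 to 19699188) lie on the minus strand. Apoa2 is on chromosome 1 (171225054 to 171226379), Apoh on chromosome 11 (108343354 to 108414396) and Apob on chromosome 12 (7977648 to 8016835). Apoa4 and Apoa5 each overlap antisense genes, so their reverse-strand counts were used, and the forward strand held 0.170% to 1.83% of the stranded counts at Apoa4.

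The bases just before the start of 3 genes of the chromosome 9 cluster are shown because the values of Apoa4 differ from those of its neighbours below. They come from RefSeq promoter windows on GRCm38.p6 and end before the first transcribed base of either annotation. Capitals mark a match to CAAAGTTCA in Apoa4 (chr9:46240662-46240670) and to TATAAA in Apoa5 (chr9:46268577-46268582).
Apoa4, chr9:46240594-46240695, plus strand: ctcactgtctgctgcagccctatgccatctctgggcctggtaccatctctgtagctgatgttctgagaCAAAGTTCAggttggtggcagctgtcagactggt
Apoa1, chr9:46228380-46228579, plus strand: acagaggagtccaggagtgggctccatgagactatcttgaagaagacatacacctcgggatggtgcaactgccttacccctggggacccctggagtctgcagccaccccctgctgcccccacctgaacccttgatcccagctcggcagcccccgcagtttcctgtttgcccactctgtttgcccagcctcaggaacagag
Apoa5, chr9:46268358-46268607, plus strand: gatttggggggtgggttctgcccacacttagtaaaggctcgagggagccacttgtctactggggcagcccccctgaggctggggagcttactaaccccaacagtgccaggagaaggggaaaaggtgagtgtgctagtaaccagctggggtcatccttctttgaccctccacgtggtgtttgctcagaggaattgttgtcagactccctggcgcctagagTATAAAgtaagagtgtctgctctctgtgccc

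Windows from 250 bases before to 50 bases after the RefSeq start were found for 8 of the 10 genes (all but Apoc1 and Apoc3) and searched on both strands for short motifs, of which 6 are given. CAAAGTTCA, a variant of the core bound by Hnf4a that was added after the sequences had been seen, was present in 1 of the 8 genes (Apoa4) and in 0.390% of all 32851 windows. CAAAGTCCA was present in 0 of the 8 and in 0.475% of all windows. TATAAA was present in 4 of the 8 (Apoa2, Apoa5, Apob and Apoe) and in 13.6% of all windows. TGTTTAC, a forkhead site, was present in 3 (Apoa2, Apoe and Apoh) and in 3.65%. AGGTCA was present in 3 (Apoa2, Apoc2 and Apoh) and in 16.3%, and CCAAT in 1 (Apoa2) and in 37.4%.

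The first question was whether prenatal vitamin D deficiency altered these genes in the adult liver. None of the 9 genes passed an adjusted p-value of 0.05 between all VDD-F1 and all VDS-F1 mice (quasi-likelihood test of edgeR, Benjamini-Hochberg adjusted over all genes), where 0.0402% of the 12453 genes did. At an unadjusted p-value under 0.05 there were 0 of 9, against 15.8% of all genes. The 2 diets overlapped in all 9, and did not overlap in 1.18% of all genes. The log2-fold changes ran from -0.31 (Apoa2) to 1.20 (Apoa4), with a median of -0.03, and 0.00 over all genes tested. DESeq2's Wald test and voom also called 0 of 9, where they called 504 and 590 of the 12453 genes.

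Apob had 13360, 11578, 13874, 12280, 12749 and 10585 CPM in VDD1 to VDD6, and 14736, 11819, 12861, 12938, 12502 and 12493 in VDS1 to VDS6. The diets overlapped throughout (log2-fold change -0.06, standard error 0.11, adjusted p = 0.856, edgeR). The receptor ligand Apoe ranged from 18143 to 24235 CPM across the VDD-F1 livers and from 21481 to 23555 across the VDS-F1 livers (log2-fold change -0.10, standard error 0.11, adjusted p = 0.714, edgeR). VDD2 had the lowest level of 12 for Apoe, Apoa2 and Apoh.

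The high density lipoprotein genes Apoa1 and Apoa2 had effects of opposite sign. For Apoa1 the mean was 8609 ± 1408 CPM in the VDD-F1 livers against 7284 ± 1609 in the VDS-F1 livers (SD, n = 6 per diet). The difference was 0.24 on the log2 scale (standard error 0.16, adjusted p = 0.497, edgeR). Apoa2 had 4826, 2974, 5786, 4099, 3359 and 4010 CPM in VDD1 to VDD6 and 4556, 5065, 5199, 5376, 5248 and 5550 in VDS1 to VDS6. VDD2, VDD4, VDD5 and VDD6 were below every VDS-F1 mouse, while VDD3 was the highest of all. On the log2 scale Apoa2 differed by -0.31 (standard error 0.15, adjusted p = 0.334, edgeR).

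The lipase regulators were close between the diets. Apoc3 averaged 940 ± 112 CPM under VDD and 1045 ± 38.9 under VDS (SD, n = 6 per diet), and the difference was -0.15 on the log2 scale (standard error 0.09, adjusted p = 0.455, edgeR). Apoa5, which lowers plasma triglycerides, had 906 ± 178 and 906 ± 115 CPM. Apoc1 had 3008 ± 405 and 2838 ± 204, and Apoh, a plasma glycoprotein that binds phospholipids, 1564 ± 301 and 1600 ± 203 (SD, n = 6 per diet). For these 3 the adjusted p-values from edgeR were 0.999, 0.753 and 0.937.

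Apoa4 had the widest spread of the 9. It had 1289, 1621, 2928, 157, 161 and 122 CPM in VDD1 to VDD6, and 1283, 833, 148, 162, 128 and 177 in VDS1 to VDS6. In each diet the high mice were those without a recorded liver weight. The difference between the diets was 1.20 on the log2 scale (standard error 0.84, adjusted p = 0.513, edgeR), and with the set of mice as a covariate it was 0.32 (standard error 0.23, adjusted p = 0.517).

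**Figure D1:**
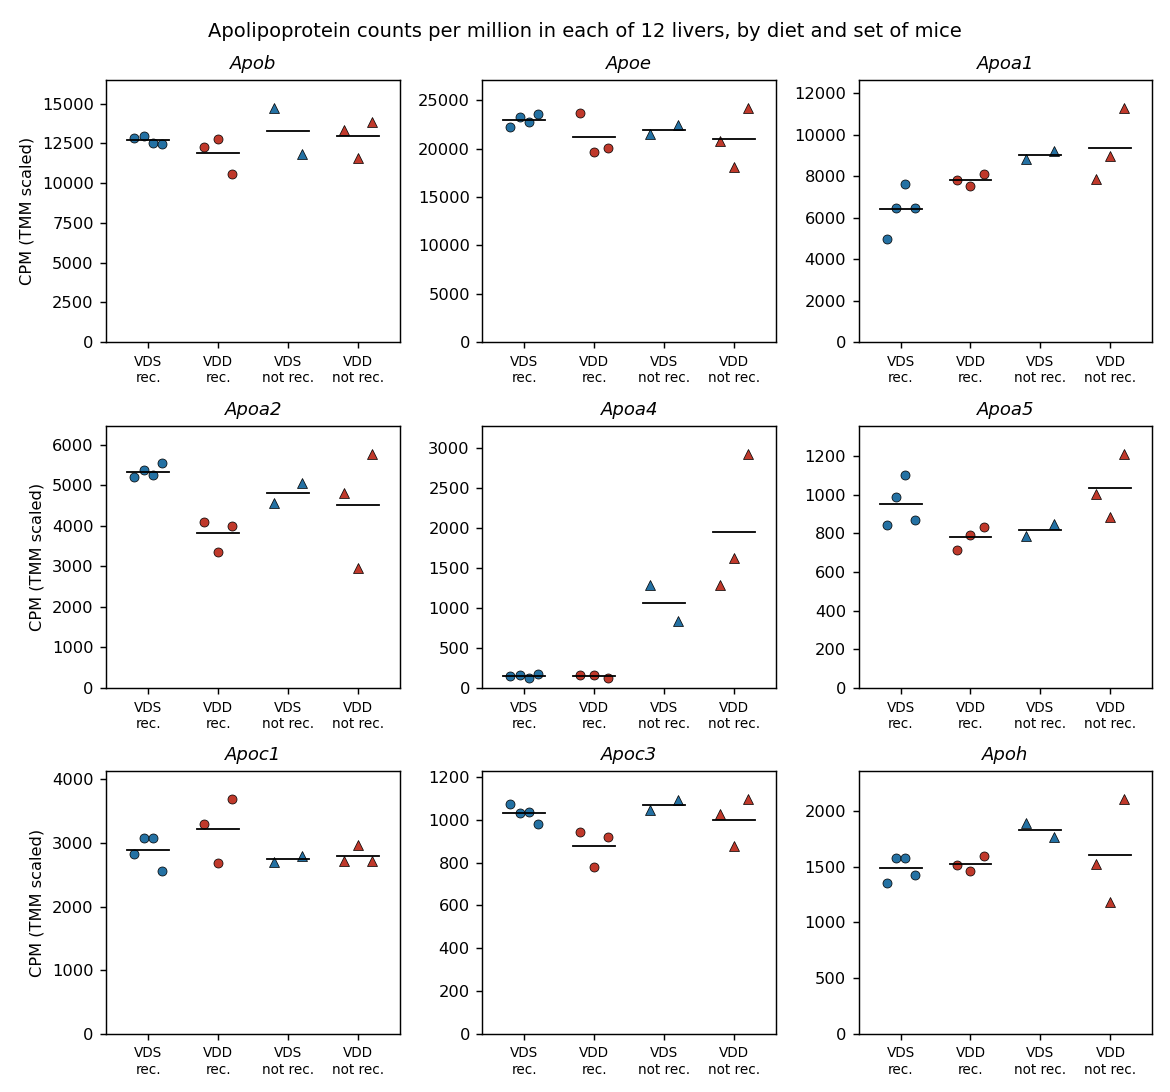
CPM of 9 apolipoprotein genes in each of the 12 livers. The y axes are linear and start at 0, the x axis gives the diet and whether a liver weight was recorded (rec.) or not, circles and triangles are single mice with and without a recorded weight, and black lines are means. Apoa4 sits between 122 and 177 CPM in the 7 recorded mice and between 833 and 2928 in the other 5.

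The sets of mice were compared next, as the mean over both diets of the difference between mice without and mice with a recorded liver weight. Apoa4 was the only member called, 1 of 9, where 2.79% of all genes passed an adjusted p-value of 0.05. It had 1591 ± 798 CPM (SD, n = 5) without and 151 ± 19.5 (SD, n = 7) with a recorded weight. This was a 9.56-fold difference, or 3.26 on the log2 scale (standard error 0.20, adjusted p = 3.16e-06, edgeR). It was higher in 5 of 5 mice than in any of the 7, and the groups did not overlap for 1.80% of all genes. Of the 12453 genes, 11 had a larger absolute log2-fold change between the sets and 1 had a smaller p-value.

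The difference in Apoa4 was present in both diets. In VDD-F1 mice the 3 without a recorded weight had 1289 to 2928 CPM and the 3 with one 122 to 161 (log2-fold change 3.73, standard error 0.29, adjusted p = 6.89e-05, edgeR), where 1.86% of all genes were called. In VDS-F1 mice the 2 without one had 833 and 1283 CPM and the 4 with one 128 to 177 (log2-fold change 2.78, standard error 0.27, adjusted p = 0.000304, edgeR), where 0.618% were called. These 2 contrasts were chosen after seeing the data, and in both Apoa4 was the only member called (edgeR). In VDD-F1 mice the other log2-fold changes were 0.41 for Apoa5 (standard error 0.14, adjusted p = 0.199, edgeR), 0.26 for Apoa1, 0.24 for Apoa2, 0.18 for Apoc3, 0.12 for Apob, 0.07 for Apoh, -0.01 for Apoe and -0.20 for Apoc1. In VDS-F1 mice they were 0.50 for Apoa1 (standard error 0.18, adjusted p = 0.308, edgeR), 0.30 for Apoh, 0.06 for Apob, 0.05 for Apoc3, -0.07 for Apoe and for Apoc1, -0.15 for Apoa2 and -0.21 for Apoa5. Without VDS6 the difference over both diets was 3.29 (adjusted p = 2.20e-05), and without VDD2 it was 3.31 (adjusted p = 2.45e-07). The count that ignores the strand keeps 15.2% of Apoa4's counts, because of the antisense genes, and gave 3.12 (standard error 0.22).

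None of the other 8 members was called between the sets by edgeR. Apoa1 had 9252 ± 1254 CPM (SD, n = 5) without and 7014 ± 1097 (SD, n = 7) with a recorded weight. Its log2-fold change was 0.38 (standard error 0.12), which did not pass (adjusted p = 0.134, edgeR) and was called by DESeq2's Wald test (adjusted p = 0.0313), which called 647 of the 12453 genes where edgeR called 347. The log2-fold changes of the other 7 members were 0.19 for Apoh, 0.12 for Apoc3, 0.10 for Apoa5, 0.09 for Apob, 0.05 for Apoa2, -0.04 for Apoe and -0.14 for Apoc1. With an unadjusted p-value under 0.05 there were 2 of 9 members, Apoa4 and Apoa1, against 14.6% of all genes. The median over the 9 was 0.10, and 0.01 over all genes.

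The ratio of Apoa4 to its neighbours in the chromosome 9 cluster restates these values within each library. The log2 ratio of Apoa4 to Apoa1 in the same library was -2.66 ± 0.55 (SD, n = 5) without and -5.53 ± 0.36 (SD, n = 7) with a recorded weight, a difference of 2.88. The difference was 3.19 for the ratio to Apoc3 and 3.17 for the ratio to Apoa5. All 3 share the values of Apoa4 and were chosen after seeing the data, so they are a description with no test. Of the other genes tested within 100 kb of the cluster, Sik3 (0.13), Zpr1 (-0.00) and Bud13 (-0.27) had these log2-fold changes between the sets, with adjusted p-values of 0.451 to 0.988 (edgeR). Gm47544, antisense to Apoa5, had -0.97 (standard error 0.66, adjusted p = 0.567).

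**Figure D2:**
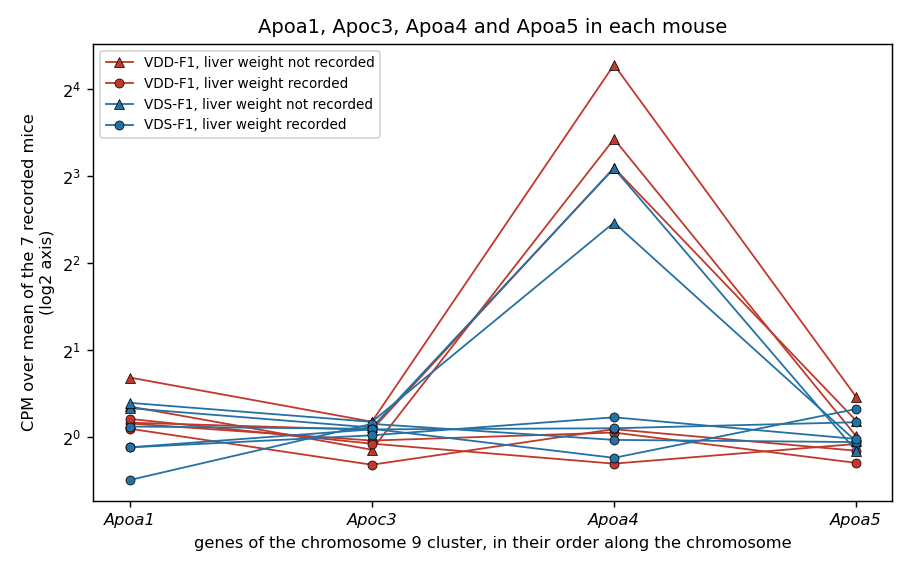
CPM of the 4 apolipoprotein genes of the chromosome 9 cluster in each mouse, divided by the mean of the 7 mice with a recorded liver weight (log2 axis), in the order of the genes along the chromosome. Each line is 1 mouse, red for VDD-F1 and blue for VDS-F1, and triangles are mice without a recorded weight. The 5 lines with triangles lie above the other 7 at Apoa4.

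Gm10680, an antisense gene that shares 632 exon bases with Apoa4, had 14 to 149 counts in the mice without and 4 to 36 in those with a recorded weight (log2-fold change 2.42, standard error 0.44, adjusted p = 0.0105, edgeR). The part that misread strands of Apoa4 fragments play in these counts was not tested.

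Marker lists of other cell types were read beside this result. Erythroid genes summed to 523 to 1371 CPM in the mice without and 237 to 484 in the mice with a recorded weight, and 4 of 5 were higher at an adjusted p-value under 0.05, against 2.79% of all genes, among them Hbb-bs (log2-fold change 1.72, adjusted p = 0.00459, edgeR). The fifth, Alas2, had -0.34 (adjusted p = 0.128). Their part in the result for Apoa4 was not tested. Of 9 enterocyte markers, a list added after seeing the data, 8 had 0 to 15 counts in any library, and Sis and Reg3b had 0 in all. The ninth, Fabp2, a fatty acid-binding protein known from the intestine, averaged 44.1 ± 9.41 CPM (SD, n = 5) in the mice lacking a weight and 22.4 ± 2.50 (SD, n = 7) in the others (log2-fold change 0.90, standard error 0.11, adjusted p = 0.000606, edgeR). Hepatocyte markers were higher without a recorded weight for 9 of 20 genes, with a median log2-fold change of -0.02, and 1 was called, Tdo2 (-0.60, adjusted p = 0.00841). Kupffer cell markers were higher for 10 of 10 with a median of 0.39 and 0 calls, and endothelial markers for 1 of 8 with a median of -0.25 and 0 calls. Stellate cell markers were higher for 9 of 9 (median 0.23), markers of lipid-associated macrophages for 5 of 5 (0.79) and cholangiocyte markers for 4 of 5 (0.23), each with 0 calls.

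Within the mice with a recorded liver weight, 3 VDD-F1 against 4 VDS-F1, 0 of 9 members passed an adjusted p-value of 0.05, where 2.02% of all genes did. With an unadjusted p-value under 0.05 there was 1 of 9, Apoa2, against 18.0% of all genes. Apoa2 had 4099, 3359 and 4010 CPM in VDD4 to VDD6 and 5199, 5376, 5248 and 5550 in VDS3 to VDS6. The 3 VDD-F1 mice lay below all 4 VDS-F1 mice, by -0.48 on the log2 scale (standard error 0.18, adjusted p = 0.185, edgeR). Leaving out VDD2, which is not among these 7 mice but enters the shared estimate of the spread, gave -0.48 with an adjusted p-value of 0.00910, and a fit of the 7 mice alone gave -0.48 with 0.00626. The size of the difference was thus unchanged. Without VDD2 the adjusted p-value of Apoa5 fell as well, from 0.285 to 0.137 (edgeR). The number of all genes called in these 2 fits is not given here.

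Apoc3 and Apoa5 also did not overlap between the diets in these mice. Apoc3 had 778 to 943 CPM in VDD4 to VDD6 and 983 to 1077 in VDS3 to VDS6 (log2-fold change -0.23, standard error 0.11, adjusted p = 0.308, edgeR). With voom Apoc3 (-0.26, adjusted p = 0.0474) and Apoa2 (-0.49, adjusted p = 0.00845) were called, among 1648 of the 12453 genes. Apoa5 had 716 to 832 and 845 to 1099 CPM (log2-fold change -0.29, standard error 0.13, adjusted p = 0.285, edgeR). The groups did not overlap for 3 of 9 members and for 23.4% of all genes. Apoa4, with 122 to 161 and 128 to 177 CPM, differed by -0.07 on the log2 scale (standard error 0.25, adjusted p = 0.913, edgeR). The log2-fold changes of the remaining members were 0.29 for Apoa1, 0.16 for Apoc1, 0.04 for Apoh, -0.10 for Apob and -0.12 for Apoe. With size factors from hepatocyte genes the median of all genes moved to -0.17, and Apoa2 (-0.66, adjusted p = 0.0178), Apoc3 (-0.40, adjusted p = 0.0191) and Apoa5 (-0.46, adjusted p = 0.0247) were called. In that fit 1210 of the 12453 genes were called, 1102 of them lower in VDD-F1. Relative to that median their values were -0.49, -0.24 and -0.29. Of 5 markers of lipid-associated macrophages 2 were called higher in VDD-F1 mice in these 7 livers, with a median log2-fold change of 3.31 over the 5, while 0 were called over all 12 mice and 0 in the mice without a recorded weight (edgeR), where 5 and 2 had an unadjusted p-value under 0.05, against 15.8% and 8.07% of all genes. In the same 7 livers 2 of 9 stellate cell markers were called, Ecm1 (-1.22) and Col3a1 (2.16), 1 of 8 endothelial markers, Stab2 (-0.48), and 1 of 20 hepatocyte markers, Hpx (0.89), with adjusted p-values of 0.00844 to 0.0480 (edgeR), against 2.02% of all genes. The part of these cell types in the values of the apolipoproteins was not tested.

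Within the mice without a recorded weight, 3 VDD-F1 against 2 VDS-F1, 0 of 9 passed, and 0.0321% of all genes did. Apoa4 was the only 1 of 9 with an unadjusted p-value under 0.05, against 8.07% of all genes. It had 1289 to 2928 CPM in VDD1 to VDD3 and 833 and 1283 in VDS1 and VDS2 (log2-fold change 0.88, standard error 0.30, adjusted p = 0.495, edgeR). VDD1 and VDS1 were almost level. Without the filter on low counts the same difference was 0.87 with an adjusted p-value of 0.000865. How many of all genes that fit called is not given here. Apoa5 had 886 to 1212 and 788 to 850 CPM (log2-fold change 0.34, standard error 0.16, adjusted p = 0.642, edgeR). Groups did not overlap for 2 of 9 members and for 18.5% of all genes. The log2-fold changes of the remaining members were 0.05 for Apoa1, 0.03 for Apoc1, -0.04 for Apob, -0.06 for Apoe, -0.09 for Apoa2, -0.10 for Apoc3 and -0.19 for Apoh.

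The difference between the 2 diet effects (not recorded minus recorded) was tested directly. None of the 9 passed an adjusted p-value of 0.05, where 0.0883% of all genes did, and 2 of 9 had an unadjusted p-value under 0.05, against 9.01%. These were Apoa5, at 0.62 on the log2 scale (standard error 0.21, adjusted p = 0.381, edgeR), and Apoa4, at 0.95 (standard error 0.39, adjusted p = 0.503). Without the filter on low counts Apoa4 was called, at 0.95 (adjusted p = 0.0108), and the share of all genes called in that fit is not given here. The fitted diet effects of Apoa5 were -0.29 in the recorded mice and 0.34 in the others, neither of which passed. For the other members the difference was 0.40 for Apoa2, 0.13 for Apoc3, 0.06 for Apoe and for Apob, -0.13 for Apoc1, -0.23 for Apoh and -0.24 for Apoa1. With size factors from hepatocyte genes the median of all genes in this comparison moved to 0.37, and Apoa5 was called (0.97, adjusted p = 0.0193), 0.60 above that median. In that fit 577 of the 12453 genes were called, 559 of them with a positive difference.

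**Figure D3:**
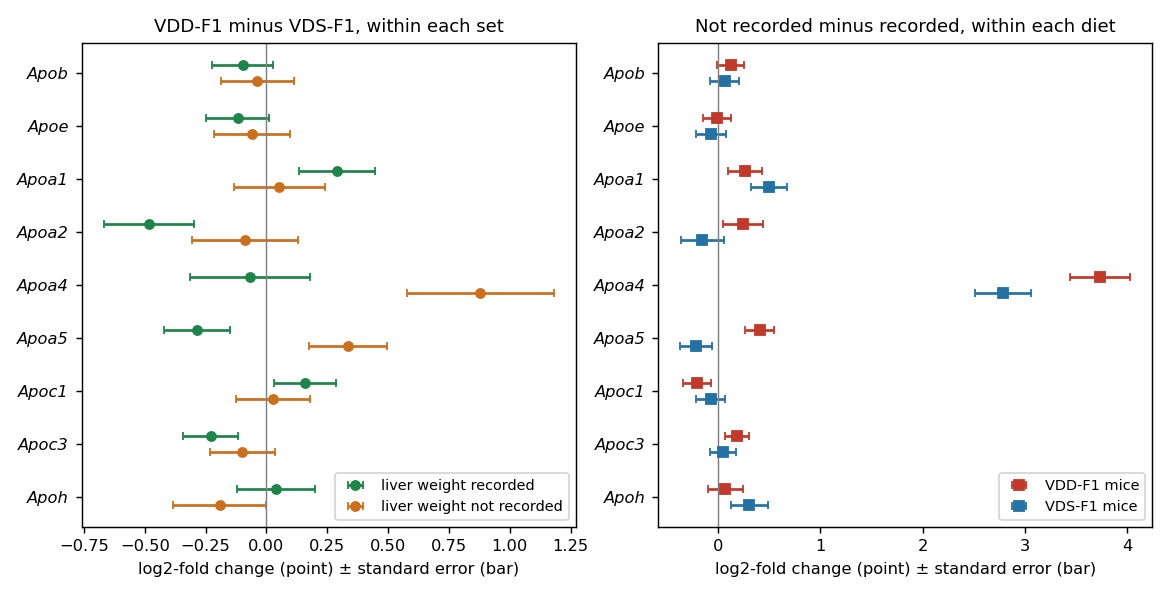
Log2-fold changes of 9 apolipoprotein genes (points) with standard errors (bars) from edgeR. On the left, VDD-F1 minus VDS-F1 within the mice with (green) and without (orange) a recorded liver weight, and on the right, not recorded minus recorded within VDD-F1 (red) and VDS-F1 (blue) mice. Apoa4 lies at 3.73 and 2.78 on the right, and the other 8 genes lie between -0.21 and 0.50.

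The members did not vary as 1 block across the 12 livers. Over the 36 pairs the median Pearson r of log2 CPM was 0.32, with r above 0.5 in 9 pairs and below 0 in 12. Apoa2 followed Apoe (r = 0.85, Spearman's rho = 0.79) and Apoc3 (r = 0.85, rho = 0.71), and Apoa1 followed Apoa4 (r = 0.72, rho = 0.58). Apob and Apoc1 went in opposite directions (r = -0.66, rho = -0.49). Genes in the same library share its scaling and cell composition, so these values describe the 12 libraries and carry no test.

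The gene outside the group that was most like each member was also found, as the highest Pearson r of log2 CPM over 12 libraries among all genes tested. For Apoa4 it was Tspan31, a tetraspanin (r = 0.95, rho = 0.87, and r = 0.91 without its 2 extreme libraries), which was 0.53 higher on the log2 scale in the mice without a recorded weight (adjusted p = 0.00312, edgeR). For Apoa2 it was Acads, an enzyme of short-chain fatty acid oxidation (r = 0.97), for Apoc3 Shpk (0.95), for Apoe Tmbim6 (0.94), for Apoc1 Pet100 (0.93) and for Apoh Rnf128 (0.93). Apoa1 was most like Card19 (0.92), Apoa5 like Klf10 (0.91) and Apob like Abraxas2 (0.88). Each is the highest value over all genes tested, so it is high by choice. The difference of Tspan31 between the sets is not independent of that choice, since Apoa4 itself differs between them.

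Of 9 other apolipoprotein genes, 8 were tested, and the serum amyloid A proteins Saa1 and Saa2, acute phase proteins that bind high density lipoprotein, varied most. Saa1 had 225 and 279 CPM in VDS1 and VDS2, 26.1 to 51.8 in VDD1 to VDD3, 20.8 to 27.9 in VDD4 to VDD6 and 12.2 to 17.5 in VDS3 to VDS6. The 2 highest mice were thus VDS-F1 mice without a recorded weight. Saa2 had 101 and 161, 22.7 to 32.0, 15.2 to 18.1 and 6.19 to 10.7 CPM in the same order. Saa1 and Saa2 are close paralogs, so reads may be left out or assigned to the wrong gene.

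Between the sets 3 of these 8 genes were called, against 2.79% of all genes, each higher without a recorded weight: Saa1 (log2-fold change 2.41, adjusted p = 5.67e-06, edgeR), Saa2 (2.37, adjusted p = 6.69e-06) and Apof (0.32, adjusted p = 0.0420). Apof, a lipid transfer inhibitor, had 461 to 551 CPM without and 385 to 446 with a recorded weight. Apoa4 and the Saa genes differed in which mice were highest: Apoa4 peaked in VDD3, at 2928 CPM, where Saa1 had 26.1.

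The diets differed in opposite directions for Saa2 in the sets. In the mice without a recorded weight both were lower in VDD-F1, with log2-fold changes of -2.67 for Saa1 (adjusted p = 0.000889, edgeR) and -2.22 for Saa2 (adjusted p = 0.00381). In the mice with one Saa2 was higher by 1.0 on the log2 scale (adjusted p = 0.0367), and Saa1 was 0.63 higher without passing (adjusted p = 0.140). The difference of the diet effects was -3.30 for Saa1 and -3.22 for Saa2 (adjusted p = 0.00151 for both, edgeR). Over all mice the diets gave 0 calls among these 8 genes, and 1 had an unadjusted p-value under 0.05 (edgeR), against 15.8% of all genes. Saa4, the constitutive member, had a log2-fold change of -0.79 (adjusted p = 0.0855), Saa1 of -1.58 (adjusted p = 0.333) and Apon of -0.18 (adjusted p = 0.411). Apoc4, next to Apoc2, had 0.10 (adjusted p = 0.705).

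**Figure D4:**
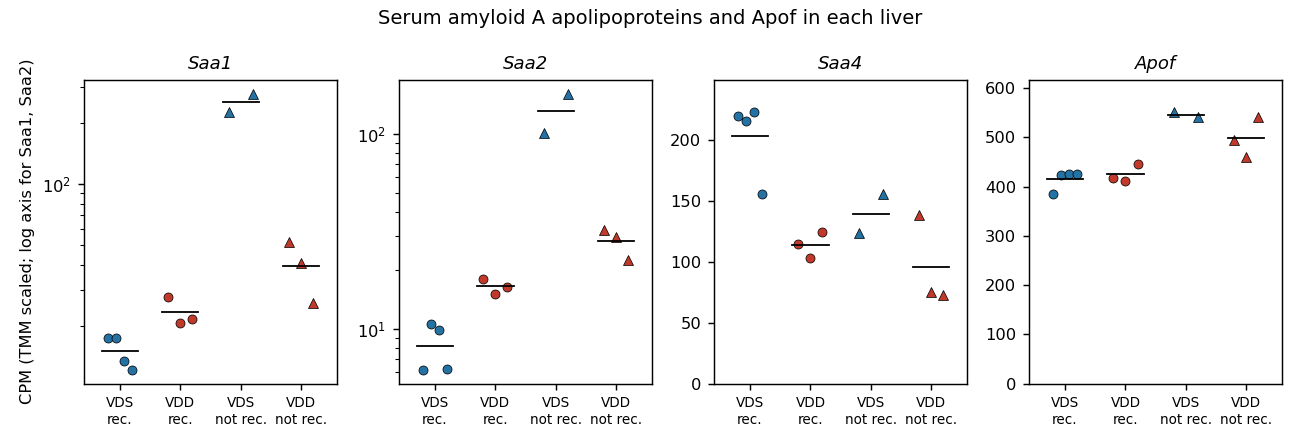
CPM of Saa1, Saa2 (log axes), Saa4 and Apof (linear axes from 0) in each liver, by diet and by whether a liver weight was recorded (rec.), with black lines for means. The 2 VDS-F1 mice without a recorded weight are the highest for Saa1, at 225 and 279 CPM.

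Genes that assemble, clear and remodel lipoproteins were described from fixed lists. Between all VDD-F1 and VDS-F1 mice 0 genes passed an adjusted p-value of 0.05 in 5 lists: 16 genes of very low density lipoprotein assembly, 10 of receptors and clearance, 12 plasma lipases and their regulators, 6 of cholesterol efflux and 21 transcriptional regulators of apolipoproteins. With an unadjusted p-value under 0.05 there were 3, 1, 4, 2 and 3 genes, against 15.8% of all genes, and the median log2-fold changes were -0.11, -0.05, -0.17, 0.21 and -0.17. The smallest p-values belonged to Lipc, hepatic lipase (log2-fold change -0.52, adjusted p = 0.0855, edgeR), Lpl, lipoprotein lipase (2.14, adjusted p = 0.0918), and Abcg5 and Abcg8, the partners in the sterol exporter of hepatocytes (0.93 and 0.71, adjusted p = 0.0969 and 0.100). Other genes of the lists with small p-values were Tm6sf2 (0.35), Dgat2 (-0.39) and Pla2g12b (0.20) of assembly, Sdc1 (0.38), Mylip (-0.27) and Lrp1 (-0.23) of clearance, and Lmf1 (-0.34), the chaperone of lipases. Abcg1 had a log2-fold change of 0.44, and the regulators Mlxipl and Hnf4a had -0.57 and -0.29, with adjusted p-values of 0.145 to 0.384 for these 3 genes (edgeR).

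Within the mice with a recorded weight 3 genes of these lists were called, against 2.02% of all genes. Lipc was lower in VDD-F1 (-0.67, adjusted p = 0.0423, edgeR), Sdc1, a heparan sulfate proteoglycan that binds remnants, was higher (0.69, adjusted p = 0.0296), and the clock repressor Nr1d1 was lower (-1.67, adjusted p = 0.0289). In the mice without a recorded weight Nr1d1 had a log2-fold change of 1.47 (adjusted p = 0.386), and the difference of the 2 diet effects was 3.14 (standard error 0.53, adjusted p = 0.0573, edgeR). Of the 21 regulators 9 had an unadjusted p-value under 0.05, all with lower values in VDD-F1, against 18.0% of all genes in either direction. Within the mice without a recorded weight 0 genes of these 5 lists were called (edgeR), and 3 had an unadjusted p-value under 0.05, against 8.07% of all genes.

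Between the sets Sort1, a sorting receptor for Apob, was lower (-0.51, adjusted p = 0.0175, edgeR) and Lsr, a receptor for remnants, was higher (0.39, adjusted p = 0.0284) without a recorded weight. None of the 21 regulators was called between the sets (edgeR), and 2 had an unadjusted p-value under 0.05, against 14.6% of all genes. The regulators' median log2-fold change was 0.07.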

How the data were processed

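After adapter trimming the authors aligned reads to mm10 (GRCm38) with STAR, counted on GENCODE M15, and deposited unnormalized counts per gene for both strands together and for each strand. Reverse-strand counts were taken, which made up 92.7% to 95.8% of the stranded total. Of 52636 genes 52403 were matched to GENCODE M21 on GRCm38 for names and positions. A fragment on 2 overlapping genes of the same strand is not counted.

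The 12453 genes whose counts averaged 12 or more entered edgeR (version 4.0.16, under R 4.3.3), with TMM scaling, the legacy quasi-likelihood test and Benjamini-Hochberg adjustment over all of them. The diets were compared in a model of 2 groups, and the sets in a model of diet by set. The threshold was an adjusted p-value of 0.05. The study's methods name DESeq2, which was run as an alternative (1.42.0), as was voom in limma 3.58.1. CPM are scaled by TMM and log2 CPM have a prior count of 2. Single members were also compared by exact permutation of mice in Python 3.11.15 with SciPy 1.17.1. Whether mice of a group came from separate litters is not given, so p-values measure the spread between these mice.

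The 9 members tested are named in every comparison of the diets and sets. Of the other apolipoproteins and the 5 lists of lipoprotein genes, those with an adjusted p-value under 0.05 in these comparisons and the 3 smallest p-values between the diets are named, except for 1 gene that, with 1 motif, is not reported here, and for each member the gene with the highest Pearson r. Marker lists are given by their summed level or counts, with single genes as examples. The members and lists were chosen with earlier results of these data known.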

Additional observations from a re-analysis of the deposited data

Results flagged for a closer look

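Among the mice with a recorded liver weight, Apob in VDD6 lay far below the rest, at 10585 CPM, where the nearest of the other 6 mice had 12280. It was the only value to stand apart by Dixon's test in 55 groups of 4 to 7 mice, and chance gives about 1 in 20 such groups.

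The effect of the diet on Saa1 differed between the sets of mice, by -3.30 on the log2 scale (not recorded minus recorded, adjusted p = 0.00151, edgeR), and that on Saa2 by -3.22 (adjusted p = 0.00151). Both rest on VDS1 and VDS2, the only VDS-F1 mice without a recorded weight.

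In the forward-strand count of Apoa4, a column that no comparison of the report used on its own, VDD1 had 270 counts, and the highest VDS-F1 mouse had 51. In VDD1 this was 1.30% of the stranded counts at the gene.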

How the results depend on the processing

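Between all VDD-F1 and VDS-F1 mice 0 members were called in each of the 27 alternatives. The number of all genes with an adjusted p-value under 0.05 ran from 0 to 590 (main 5). The exact permutation test of log2 CPM gave 2 members at an unadjusted p-value under 0.05, Apoa2 (0.0433) and Apoc3 (0.0498). It was run on the members only, so it has no share over all genes, which was 15.8% with edgeR. Apoa4 remained called between the sets in each of the alternatives other than the 3 ratios to its neighbours, which carry no test. Its log2-fold change ran from 2.78 to 3.73. These ends are the differences within VDS-F1 and within VDD-F1 mice, chosen after seeing the data. The cause of the changes below was not tested.

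The count of members called within the recorded mice was 2 with voom (1648 of all genes), 3 with size factors from hepatocyte genes (1210 of all genes, against 252 in the main analysis), 1 without a filter on low counts, 1 with that set fitted alone and 0 to 1 with each mouse left out. Without the filter it was 1 in the other mice and 1 for the difference of the diet effects, which was also 1 with hepatocyte size factors (577 of all genes, against 11). For the fits without the filter, of the set alone and with a mouse left out, the number of all genes called is not given here. Whether these counts of members exceed the share of all genes therefore cannot be read from them. Between the sets DESeq2's Wald test called 2 (647 of all genes, against 347). With hepatocyte size factors the members' median became 0.15 in the mice without a recorded weight and 0.42 for the difference of the diet effects. The median of all genes was 0.20 and 0.37 there.

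Uncalled members changed sign. Over all mice Apoa5 became 0.021 (upper quartile) and 0.035 (library totals), below the medians of all genes of 0.029 and 0.050. It became 0.026 (count without strand) and 0.012 (mean count of 50), and ran from -0.10 to 0.062 with each mouse left out. Apoh became 0.014 (voom) and ran from -0.14 to 0.036 with each mouse left out. With hepatocyte size factors Apoc1 became -0.013 and Apoh -0.13 in the recorded mice, Apoa2 0.072, Apoe 0.12, Apoc3 0.082 and Apob 0.15 in the others, and Apoc1 0.24, Apoa1 0.12 and Apoh 0.11 for the difference of the diet effects. The median of all genes moved to -0.17, 0.20 and 0.37 in these comparisons. Relative to that median none of these signs changed. With voom Apoa2 became 0.049, Apoc1 -0.0030 and Apob 0.018 in the mice without a recorded weight, and Apoe 0.0019 between the sets. Within VDS-F1 mice the set difference became -0.15 for Apoa2 and -0.21 for Apoa5. With each mouse left out, Apoa4 ran from -0.15 to 0.048 and Apoh from -0.0031 to 0.070 in the recorded mice. In the others Apoa2 ran from -0.29 to 0.14, Apoc1 from -0.018 to 0.062, Apoe from -0.16 to 0.035, Apoa1 from -0.086 to 0.16 and Apob from -0.19 to 0.13. Between the sets Apoa2 ran from -0.057 to 0.16 and Apoe from -0.088 to 0.010, and for the difference of the diet effects Apoe from -0.033 to 0.15 and Apob from -0.090 to 0.23.

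The same replicate numbers mark different mice, and deviations of same-numbered mice correlated by -0.08 to 0.10, with 0 of 6 VDD-F1 mice closest to their own number. With a replicate block 0 members were called, at a median of -0.05, and 19 of all genes had an adjusted p-value under 0.05.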
